A study of Mus musculus with 5 samples.

Results

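The genes described here encode collagens, laminins and integrins, together with 6 genes of the same setting chosen by name (Fn1, Sparc, Nid1, Nid2, Vim and Dcn). Members were those 6 genes and others chosen by gene symbol. Taken were all symbols that begin with Col, a number, a and a number, or with Lama, Lamb or Lamc and a digit. So were all symbols that begin with Itga or Itgb and a digit. Every member had a probe set assigned to a single gene. That gave 84 of the 19938 genes measured: 44 collagens, 10 laminin chains, 21 integrin subunits, the 6 genes added by name, and 3 genes that share the spelling but encode no subunit (Itgb1bp1, Itgb1bp2 and Itgb3bp). The arrays carried RNA from islet cells of untreated C57BL/6 mice, 8 to 12 weeks of age and heterozygous at the Flattop gene (FVR/+), a genotype that both groups shared. Cells were separated by flow cytometry into Flattop-positive pools (3 arrays) and Flattop-negative pools (2 arrays), each pool holding cells of 4 to 6 mice of undetermined sex. Flattop is encoded by Cfap126, and the series set out to tell proliferative β-cells from mature ones. Since the animals were pooled, a value is an average over mice, and the p-values measure the spread between these pools.

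Collagens are trimeric proteins that form fibrils or sheets, and laminins are heterotrimers of α, β and γ chains that, with collagen IV and nidogens, build basement membranes. Integrins are αβ heterodimers of the cell surface that bind these matrices and connect them to the cytoskeleton. In mouse islets the basement membrane beside β-cells is known to be laid down mainly by the endothelial cells of the vessels, while β-cells contact it through β1 integrins.

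None of the 84 members passed the test between the fractions (limma, adjusted p under 0.05), against 0.0% of all genes, and 12 had an unadjusted p under 0.05, as did 13.8% of all genes. In bulk RNA, fewer cells of a type and less RNA per cell cannot be told apart. The integrin subunits Itgb1, Itgb5, Itgb8, Itga3 and Itga6 and the laminin chain Lamc1 lay clearly above the floor of the arrays in Flattop-positive and Flattop-negative cells alike. Most collagens, and most laminin chains other than Lamc1, lay nearer the floor. The members had a median log2 difference (Flattop-positive minus Flattop-negative) of -0.39, against -0.10 over all genes and -0.27 over the olfactory receptor (Olfr) genes. The median Olfr gene had less signal, 3.22 to 3.66 per array against 4.50 to 5.30 for the median member. That member level was nearer the 95th percentile of the Olfr genes. This percentile was itself higher on the Flattop-negative arrays (4.75 and 4.86) than on the Flattop-positive arrays (4.29 to 4.45). Lower in Flattop-positive pools were 76 of the 84 members, 59.2% of all genes and 91.2% of Olfr genes, and the counts of lower members in each family below stand against those shares. Without Flattop-negative replicate 2 the median over the members was -0.14, against -0.07 over all genes and -0.30 over the Olfr genes.

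Values are log2 signals, and each probe set has its own affinity, so levels are compared between arrays and not between genes. As the floor served the 1027 Olfr genes, which are not expected to be active in islet cells. Their 95th percentile was 4.29, 4.44 and 4.45 on Flattop-positive arrays 1, 2 and 3, and 4.75 and 4.86 on Flattop-negative arrays 1 and 2. The floor was thus higher on both Flattop-negative arrays. Above it lay 59, 48 and 51 members on the Flattop-positive arrays, and 46 and 59 on the Flattop-negative arrays. On all 5 arrays 37 members lay above it (44.0%), against 50.6% of all genes, and 17 lay above it on none. At the 99th percentile of the Olfr genes 12 members stayed above on all 5 arrays (14.3%), against 31.5% of all genes. As a check of the labels, Cfap126 was at 6.07, 6.07 and 6.24 in Flattop-positive pools and at 5.52 and 5.44 in Flattop-negative pools, a difference of 0.64 ± 0.18 (SE; limma adjusted p = 0.274).

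**Figure D1:**
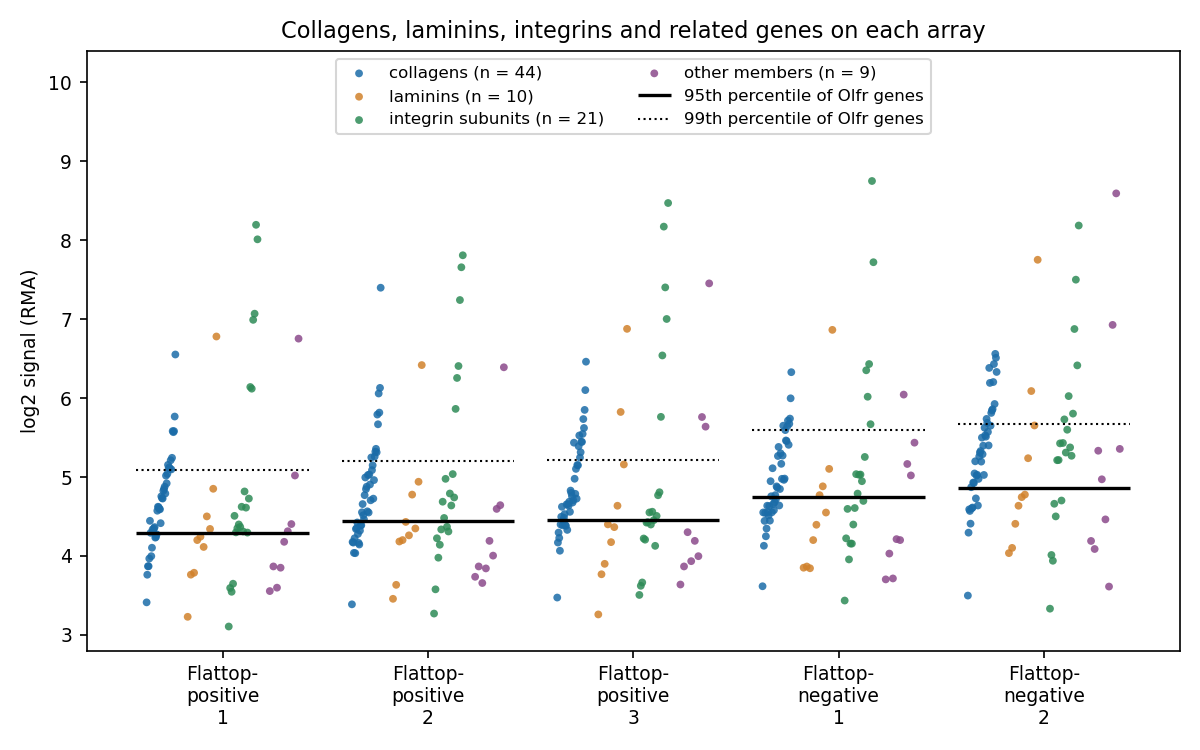
Log2 signal (vertical axis) of every member on each of the 5 arrays (horizontal axis), coloured by family, with the 95th (solid bar) and 99th (dotted bar) percentile of the Olfr genes of that array. Most collagens crowd around the bars, while several integrin subunits, Lamc1 and 6 collagens, Col6a6 highest among them on the Flattop-positive arrays, stand above the dotted bar on every array.

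Among the β integrin chains, Itgb1 encodes β1, the partner of most laminin- and collagen-binding α chains. It was at 8.01, 7.81 and 8.47 in Flattop-positive pools and at 7.72 and 8.19 in Flattop-negative pools. The groups overlapped, and the difference was 0.14 ± 0.28 (SE; limma adjusted p = 0.825). Its sign turned without Flattop-negative replicate 1 (-0.09), without Flattop-positive replicate 3 (-0.04) and after cyclic loess (-0.29) or repeated quantile normalisation (-0.15).

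Itgb8 encodes β8, which pairs with αv and is known for activating latent TGF-β. Its signal was 8.20, 7.66 and 7.002 in Flattop-positive pools and 8.75 and 6.41 in Flattop-negative pools. The highest and the lowest of the 5 values were thus the 2 Flattop-negative pools, and the difference of 0.04 ± 0.74 (SE; limma adjusted p = 0.985) was far smaller than its error. It was 1.20 with Flattop-negative replicate 1 left out and -1.13 with replicate 2 left out, and it was -0.27 on repeated quantile normalisation and -0.37 after cyclic loess.

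Itgb5, whose β5 chain also pairs with αv and binds vitronectin, stood at 6.12, 6.26 and 6.54 in Flattop-positive pools, all above the 6.02 and 5.80 of Flattop-negative pools. This was 1 of 3 members higher without overlap, against 13.7% of all genes, with a difference of 0.39 ± 0.22 (SE; limma adjusted p = 0.461). All genes with a mean signal of 6 or more had a median difference of 0.35. The αv gene, Itgav, has no digit after the prefix and is no member, but as the partner of both chains it was read as well. It was at 9.33, 8.92 and 8.74 in Flattop-positive pools against 8.91 and 8.57 in Flattop-negative pools, with overlap, a difference of 0.26 ± 0.26 (SE).

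The promoters of Itgb1 and Itgb8 are shown as members clear of the floor, whose values differ between pools in different ways. They run from 250 bases before to 50 after the annotated start, from RefSeq on GRCm38.p6, Itgb1 at chr8:128685404-128685703 on the plus strand and Itgb8 at chr12:119238227-119238526 on the minus strand. Capitals mark the GC box letters GGGCGG, searched on both strands.
Itgb1: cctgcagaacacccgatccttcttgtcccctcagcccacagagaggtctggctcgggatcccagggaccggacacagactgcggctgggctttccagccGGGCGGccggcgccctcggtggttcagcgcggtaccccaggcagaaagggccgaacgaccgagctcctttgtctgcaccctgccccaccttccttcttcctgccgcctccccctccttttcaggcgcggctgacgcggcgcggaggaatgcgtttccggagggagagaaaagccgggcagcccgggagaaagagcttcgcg
Itgb8: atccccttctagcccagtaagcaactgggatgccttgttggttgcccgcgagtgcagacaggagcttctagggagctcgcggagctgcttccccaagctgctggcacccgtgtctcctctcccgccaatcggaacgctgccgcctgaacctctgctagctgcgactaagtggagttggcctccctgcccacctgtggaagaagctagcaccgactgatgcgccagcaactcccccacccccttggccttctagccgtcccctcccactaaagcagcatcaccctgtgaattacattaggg
The Itgb1 window held 1 match and the Itgb8 window 0, while 35.7% of all 32851 promoter windows held at least 1. Promoter windows were found for 61 of the 84 members (67 windows), of which 34 windows held the GC box. The letters CCAAT, on either strand, occurred once in the Itgb8 window and in 37.4% of all windows, and TATAA in neither integrin window and in 24.9% of all.

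Of the α chains, Itga3 and Itga6 encode receptors for laminins. Itga3 was at 7.07, 7.24 and 7.40 in Flattop-positive pools and at 5.67 and 7.50 in Flattop-negative pools. The value of Flattop-negative replicate 1 was the low one, while replicate 2 held the highest of the 5. The difference was 0.65 ± 0.54 (SE; limma adjusted p = 0.587), 1.57 with Flattop-negative replicate 2 left out and -0.26 with replicate 1 left out.

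Itga6 had 6.99, 6.41 and 8.17 in Flattop-positive pools and 6.43 and 6.88 in Flattop-negative pools. Here Flattop-positive replicate 3 stood above the other 4 arrays, and the difference of 0.54 ± 0.54 (SE) was 0.05 without it. Itga2, a collagen-binding chain, had 6.14, 5.86 and 5.76 in Flattop-positive pools against 6.35 and 5.27 in Flattop-negative pools, so that the Flattop-negative pools again held the highest and the lowest value. Its difference was 0.11 ± 0.36 (SE), which was -0.43 with Flattop-negative replicate 2 left out and 0.65 with replicate 1 left out.

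**Figure D2:**
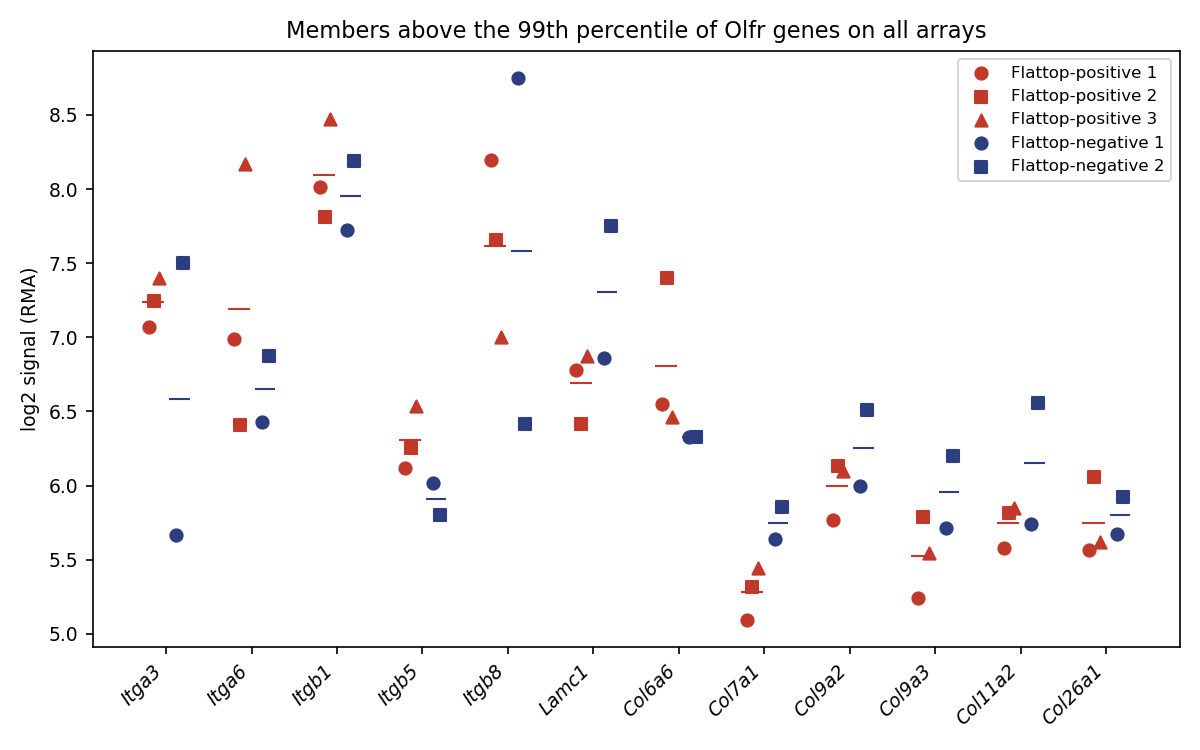
Log2 signal (vertical axis) of the 12 members (horizontal axis) above the 99th percentile of the Olfr genes on all arrays, with Flattop-positive pools in red on the left and Flattop-negative pools in blue on the right of each gene and short bars at the group means. Points of the groups interleave for most genes, and the Flattop-negative pair is far apart for Itga3 and Itgb8.

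Itga9, whose α9 chain pairs with β1 and binds tenascin-C among others, lay at 4.31, 4.31 and 4.45 on the Flattop-positive arrays, close to the floor and above it on 1 of the 3. On the Flattop-negative arrays it was at 5.03 and 5.73, both above it. With -1.02 ± 0.26 (SE; limma adjusted p = 0.253) it had the smallest p of the integrin subunits. The difference was -0.67 with Flattop-negative replicate 2 left out and -1.37 with replicate 1 left out.

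The remaining integrin chains lay nearer the floor. Itgb4, the partner of α6 in hemidesmosomes, was at 4.73, 4.74 and 4.81 in Flattop-positive pools against 5.25 and 5.38 in Flattop-negative pools, without overlap (-0.56 ± 0.18, SE; limma adjusted p = 0.301). The leukocyte chain Itgb2 lay below the floor on all 5 arrays, with 3.59, 3.58 and 3.62 in Flattop-positive pools against 4.22 and 4.01 in Flattop-negative pools (-0.52 ± 0.18, SE; limma adjusted p = 0.323). Its mouse relative Itgb2l had 4.61, 4.64 and 4.51 in Flattop-positive pools against 4.95 and 5.60 in Flattop-negative pools (-0.69 ± 0.25, SE; limma adjusted p = 0.334).

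Itga2b, the platelet chain αIIb, was at 4.30, 5.04 and 4.77 in Flattop-positive pools and at 4.70 and 6.02 in Flattop-negative pools. Only Flattop-negative replicate 2 stood apart, and without it the difference was 0.00. Itgb6 averaged 4.58 ± 0.39 (SD, n = 3) in Flattop-positive and 5.17 ± 0.20 (SD, n = 2) in Flattop-negative pools, Itga10 4.52 ± 0.13 in Flattop-positive and 5.11 ± 0.45 in Flattop-negative pools, and Itga7 4.48 ± 0.08 in Flattop-positive and 5.02 ± 0.58 in Flattop-negative pools. Itga4 averaged 4.58 ± 0.34 in Flattop-positive and 4.87 ± 0.24 in Flattop-negative pools, and Itga11 4.49 ± 0.18 in Flattop-positive and 4.81 ± 0.58 in Flattop-negative pools. The fibronectin receptor chain Itga5, the collagen receptor chain Itga1 and Itga8 lay below the floor on all 5 arrays, between 3.11 and 4.66. Itgb3 and Itgb7 crossed the floor on 2 arrays and 1 array.

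Of the 21 integrin subunits, 15 were lower in Flattop-positive pools and 6 higher, and 0 passed the test over all genes. Their median difference was -0.33, and -0.14 without Flattop-negative replicate 2. At an unadjusted p under 0.05 there were 4, namely Itga9, Itgb4, Itgb2 and Itgb2l, where 13.8% of all genes had such a p.

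Itgb1bp1 is no integrin subunit but encodes ICAP-1, which binds the tail of β1 and restrains its activation. It was at 6.75, 6.39 and 7.45 in Flattop-positive pools and at 5.44 and 5.36 in Flattop-negative pools. All 3 Flattop-positive arrays lay above both Flattop-negative arrays, which were themselves above the floor. The difference of 1.47 ± 0.34 (SE), a 2.77-fold ratio, had the smallest p among the members (limma adjusted p = 0.237) and was 1.43 with Flattop-negative replicate 2 left out and 1.51 with replicate 1 left out. It was the 1 member at least 1.5-fold higher with an unadjusted p under 0.05, a class that held 8.08% of all genes.

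Itgb3bp encodes a kinetochore protein. It had 4.31, 4.00 and 4.00 in Flattop-positive pools and 6.04 and 3.61 in Flattop-negative pools, so that Flattop-negative replicate 1 alone was clear of the floor. Its difference of -0.72 ± 0.70 (SE) passed over all genes only without Flattop-negative replicate 2 (-1.94, limma adjusted p = 0.0447), with the lone array left assumed to vary like the other group. This gene was singled out after its values were seen. The muscle protein gene Itgb1bp2 lay between 3.87 and 4.09, below the floor on all arrays.

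Among the laminins, Lamc1 encodes γ1, the γ chain of most laminin trimers. Its signal was 6.78, 6.42 and 6.88 in Flattop-positive pools and 6.86 and 7.75 in Flattop-negative pools. Flattop-negative replicate 2 was above the other 4 arrays, and replicate 1 lay among the Flattop-positive arrays. The difference was -0.62 ± 0.33 (SE; limma adjusted p = 0.447), and -0.17 without Flattop-negative replicate 2.

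Lamb1, the β1 chain that pairs with γ1 in several laminin trimers, was at 4.34, 4.35 and 5.82 in Flattop-positive pools and at 4.55 and 6.09 in Flattop-negative pools. It lay above the 99th percentile of the Olfr genes on 1 array of each group, Flattop-positive replicate 3 and Flattop-negative replicate 2, and its difference of -0.48 ± 0.65 (SE) turned to 0.29 without the second of these. The α chains of vascular basement membranes were low: Lama4 lay between 3.79 and 4.41 and below the floor on every array, and Lama5 had 4.11, 4.26 and 4.36 in Flattop-positive pools against 4.77 and 4.78 in Flattop-negative pools (-0.53 ± 0.19, SE; limma adjusted p = 0.324).

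Lamb2 averaged 4.64 ± 0.14 (SD, n = 3) in Flattop-positive pools and 5.06 ± 0.25 (SD, n = 2) in Flattop-negative pools, and Lamc3 4.98 ± 0.16 in Flattop-positive and 5.38 ± 0.39 in Flattop-negative pools. Lama2 lay below the floor on all 5 arrays with 3.23, 3.46 and 3.26 in Flattop-positive pools against 3.85 and 4.04 in Flattop-negative pools, yet had an unadjusted limma p of 0.0196 (-0.63 ± 0.19, SE; adjusted p = 0.289). Of the 10 laminin genes, 10 were lower in the Flattop-positive pools, with a median difference of -0.41, where 91.2% of Olfr genes were lower too, and 5 lay above the floor on no array (Lama1, Lama2, Lama3, Lama4 and Lamb3). Without Flattop-negative replicate 2 that median was -0.13.

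Collagen IV forms the network of basement membranes, with α1 and α2 as its common chains. Col4a1 was at 5.11, 4.96 and 5.53 in Flattop-positive pools and at 4.98 and 6.19 in Flattop-negative pools. Its groups overlapped, with the top value in Flattop-negative replicate 2 (-0.39 ± 0.41, SE), and its sign turned without that array (0.22).

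Col4a2 was at 4.73, 4.57 and 4.68 in Flattop-positive pools and at 5.27 and 5.40 in Flattop-negative pools. Here both Flattop-negative arrays were above all Flattop-positive ones, with a difference of -0.67 ± 0.18 (SE; limma adjusted p = 0.263). It was -0.61 with Flattop-negative replicate 2 left out and -0.74 with replicate 1 left out. Col4a1 and Col4a2 lie head to head, and their promoter windows are printed to show the bases around the starts that both windows hold. They are from RefSeq on GRCm38.p6, Col4a1 at chr8:11312777-11313076 on the minus strand and Col4a2 at chr8:11312555-11312854 on the plus strand. Capitals mark the 78 bases that the windows share, which read as reverse complements of each other.
Col4a1: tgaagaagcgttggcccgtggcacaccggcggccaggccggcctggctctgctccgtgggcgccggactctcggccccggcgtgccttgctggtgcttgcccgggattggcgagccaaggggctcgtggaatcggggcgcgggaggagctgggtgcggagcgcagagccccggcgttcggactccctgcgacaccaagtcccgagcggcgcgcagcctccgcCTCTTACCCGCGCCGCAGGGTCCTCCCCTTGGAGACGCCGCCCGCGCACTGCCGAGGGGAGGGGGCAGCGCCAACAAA
Col4a2: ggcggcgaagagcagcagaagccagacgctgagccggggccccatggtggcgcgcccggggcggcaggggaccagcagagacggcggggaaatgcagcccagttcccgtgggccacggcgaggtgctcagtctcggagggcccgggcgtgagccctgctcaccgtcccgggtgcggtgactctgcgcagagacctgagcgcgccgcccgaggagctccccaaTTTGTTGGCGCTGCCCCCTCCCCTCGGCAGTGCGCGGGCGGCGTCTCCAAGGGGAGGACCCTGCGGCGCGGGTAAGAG
The GC box occurred 1 time in the Col4a1 window and 3 times in that of Col4a2, and CCAAT 1 time in each, on either strand.

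The other collagen IV chains were closer to the floor. Col4a5 had 4.23, 4.38 and 4.38 in Flattop-positive pools, below the floor, against 4.76 and 5.02 in Flattop-negative pools, just above it (-0.55 ± 0.19, SE; limma adjusted p = 0.320). Col4a3 averaged 4.32 ± 0.16 (SD, n = 3) in Flattop-positive and 4.84 ± 0.29 (SD, n = 2) in Flattop-negative pools, and Col4a4 4.82 ± 0.18 in Flattop-positive and 5.20 ± 0.25 in Flattop-negative pools. Col4a6 was below the floor on all arrays. All 6 chains were lower in Flattop-positive pools (91.2% of Olfr genes were), with a median of -0.46, and of -0.44 without Flattop-negative replicate 2.

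Fibrillar collagens are the main products of fibroblasts and stellate cells. Col1a1 was at 5.21, 5.36 and 5.44 in Flattop-positive pools and at 5.46 and 5.84 in Flattop-negative pools, without overlap but with Flattop-negative replicate 1 barely above the Flattop-positive arrays (-0.31 ± 0.21, SE; limma adjusted p = 0.525). Col1a2 was at 4.79, 4.70 and 5.10 in Flattop-positive pools against 5.17 and 5.74 in Flattop-negative pools (-0.59 ± 0.26, SE; limma adjusted p = 0.394). Col3a1, with 4.59, 4.99 and 4.83 in Flattop-positive pools against 4.72 and 5.20 in Flattop-negative pools, overlapped, and its sign turned under 4 alternatives, to between 0.02 and 0.09. Col5a2 had an unadjusted limma p of 0.0445, with 4.36, 4.32 and 4.39 in Flattop-positive pools against 4.95 and 4.73 in Flattop-negative pools (-0.48 ± 0.18, SE; adjusted p = 0.350). It lay above the floor on 1 array of each group.

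The further fibrillar chains above the floor on all 5 arrays were Col2a1, Col5a1, Col5a3, Col11a2 and Col27a1. Their means in Flattop-positive and Flattop-negative pools were 5.21 and 5.62 for Col2a1, 4.80 and 5.08 for Col5a1, 4.69 and 5.19 for Col5a3, 5.75 and 6.15 for Col11a2, and 5.66 and 5.92 for Col27a1. Col11a2 and Col27a1 were highest on Flattop-negative replicate 2 and level with the Flattop-positive arrays, or below them, on replicate 1 (differences of 0.01 and 0.25 without replicate 2). Col11a1 and Col24a1 lay above the floor on 2 arrays and 1 array. All 11 fibrillar genes were lower in Flattop-positive pools, as were 91.2% of Olfr genes, with differences from -0.59 to -0.10 and a median of -0.40, which was -0.12 without Flattop-negative replicate 2.

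Among the collagen VI chains, which form beaded filaments, Col6a6 was the 1 collagen higher in Flattop-positive pools. It had 6.55, 7.40 and 6.46 in Flattop-positive pools against 6.33 and 6.33 in Flattop-negative pools, without overlap (0.47 ± 0.33, SE; limma adjusted p = 0.533). Its second probe set disagreed in pattern, with 6.42, 6.90 and 5.59 in Flattop-positive pools against 6.10 and 4.95 in Flattop-negative pools, so that the groups overlapped, and in size (0.78). Col6a1, at 4.85, 5.03 and 4.98 in Flattop-positive pools against 4.85 and 5.53 in Flattop-negative pools, and Col6a2, at 5.02, 5.25 and 4.73 in Flattop-positive pools against 4.98 and 5.69 in Flattop-negative pools, were high on Flattop-negative replicate 2 alone. Col6a3 averaged 4.34 ± 0.19 (SD, n = 3) in Flattop-positive and 4.82 ± 0.53 (SD, n = 2) in Flattop-negative pools, Col6a4 4.94 ± 0.45 in Flattop-positive and 5.13 ± 0.70 in Flattop-negative pools, and Col6a5 4.63 ± 0.05 in Flattop-positive and 4.82 ± 0.23 in Flattop-negative pools. The second probe set of Col6a5 lay between 3.46 and 4.19, below the floor on all arrays.

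The other 21 collagens were all lower in Flattop-positive pools, again beside 91.2% of Olfr genes, with a median of -0.39 and of -0.19 without Flattop-negative replicate 2. Col17a1, a transmembrane collagen of hemidesmosomes, had 4.88, 4.90 and 4.79 in Flattop-positive pools against 5.30 and 5.51 in Flattop-negative pools, without overlap (-0.55 ± 0.19, SE; limma adjusted p = 0.314). It lay above 98.4%, 98.15% and 97.4% of the Olfr genes on the Flattop-positive arrays and above 98.3% and 98.0% on the Flattop-negative arrays. Above the 99th percentile of the Olfr genes on all arrays were Col7a1, of anchoring fibrils, Col9a2 and Col9a3, which coat cartilage fibrils, and Col26a1. Col7a1 averaged 5.28 ± 0.18 (SD, n = 3) in Flattop-positive and 5.75 ± 0.15 (SD, n = 2) in Flattop-negative pools, Col9a2 6.00 ± 0.20 in Flattop-positive and 6.25 ± 0.36 in Flattop-negative pools, Col9a3 5.53 ± 0.27 in Flattop-positive and 5.96 ± 0.35 in Flattop-negative pools, and Col26a1 5.75 ± 0.27 in Flattop-positive and 5.80 ± 0.18 in Flattop-negative pools.

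Col13a1, Col16a1, Col20a1, Col22a1 and Col23a1 were also above the floor on all 5 arrays. Their means in Flattop-positive and Flattop-negative pools were 4.64 and 5.05 for Col13a1, 5.05 and 5.42 for Col16a1, 5.09 and 5.67 for Col20a1, 5.25 and 5.64 for Col22a1, and 5.11 and 5.52 for Col23a1. With Col7a1, Col9a2, Col9a3, Col17a1 and Col26a1 they make 10 such genes, whose differences ran from -0.58 for Col20a1 to -0.05 for Col26a1. Without Flattop-negative replicate 2 that of Col20a1 was 0.13 and that of Col26a1 0.08. Col15a1 and Col18a1, the multiplexin collagens of vascular basement membranes, were highest on Flattop-negative replicate 2 (5.26 and 5.31) and between 4.46 and 4.69 on the other 4 arrays. Col8a1, Col8a2, Col9a1, Col10a1 and Col25a1 lay above the floor on 1 or 2 arrays, and Col12a1, Col14a1, Col19a1 and Col28a1 on none.

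Vim, an intermediate filament gene of mesenchymal cells, leucocytes and endothelium, and Sparc, a matrix glycoprotein that binds collagen, were members that stood highest on 1 array. Vim was at 5.02, 4.64 and 5.64 in Flattop-positive pools and at 5.02 and 8.59 in Flattop-negative pools. Flattop-negative replicate 2 lay 2.95 above the next array, while replicate 1 lay inside the Flattop-positive range. The difference of -1.71 ± 1.03 (SE; limma adjusted p = 0.485) was 0.08 without that array.

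Sparc had 4.40, 4.60 and 5.76 in Flattop-positive pools and 5.16 and 6.93 in Flattop-negative pools (-1.13 ± 0.65, SE; limma adjusted p = 0.473), and -0.24 without Flattop-negative replicate 2. Fn1, encoding fibronectin, had 3.60, 3.66 and 4.30 in Flattop-positive pools against 3.72 and 5.33 in Flattop-negative pools (-0.67 ± 0.52, SE, and 0.14 without Flattop-negative replicate 2). The proteoglycan gene Dcn had 3.85, 3.84 and 3.93 in Flattop-positive pools against 4.21 and 4.97 in Flattop-negative pools. Fn1 and Dcn were above the floor on Flattop-negative replicate 2 and below it on the other 4 arrays. For Dcn the groups did not overlap (-0.72 ± 0.27, SE; limma adjusted p = 0.342), and the difference was -0.34 without Flattop-negative replicate 2. The nidogen genes Nid1 and Nid2, whose products join laminin to collagen IV, lay between 3.56 and 4.46 and below the floor on all 5 arrays.

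**Figure D3:**
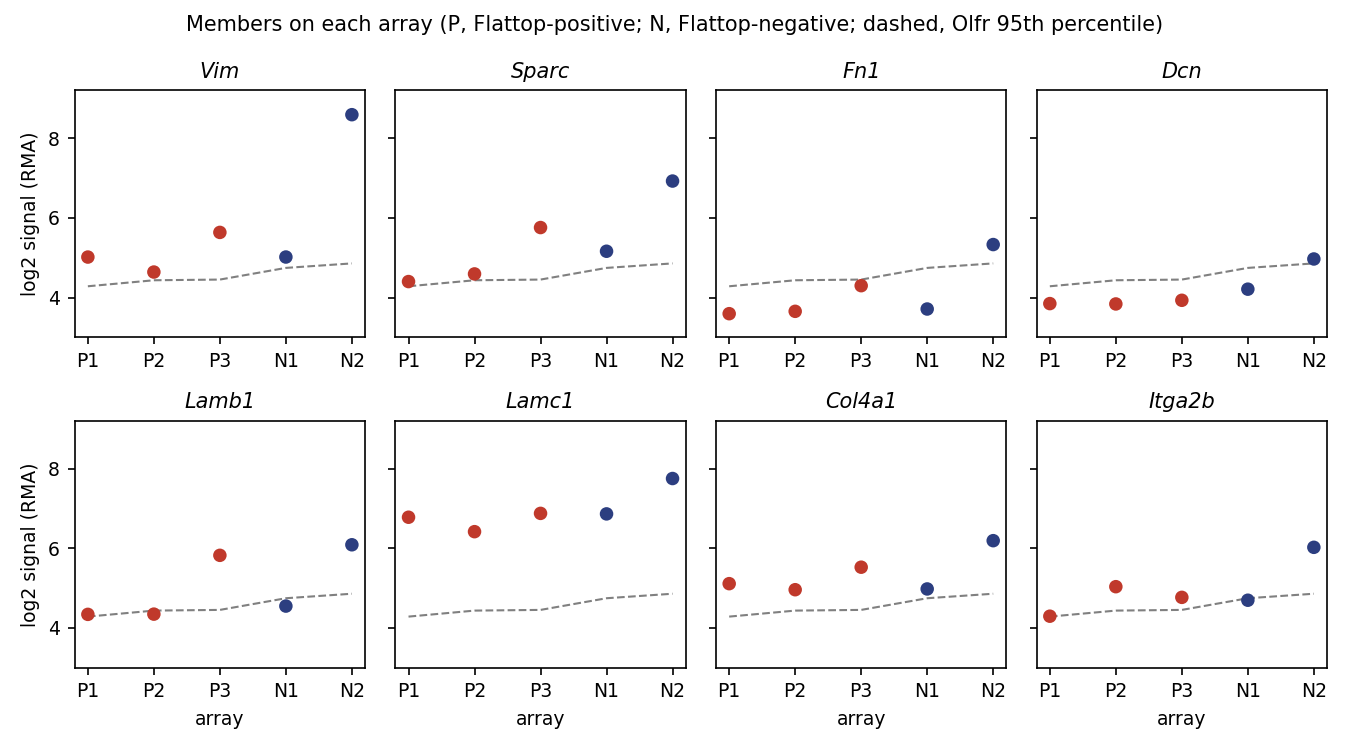
Log2 signal (vertical axis) of 8 members on the 5 arrays (horizontal axis; P, Flattop-positive in red; N, Flattop-negative in blue), with the 95th percentile of the Olfr genes as a dashed line. The 8 genes were chosen for their values on Flattop-negative replicate 2, where each is highest. Vim, Sparc, Fn1, Lamb1, Lamc1 and Col4a1 are next highest on Flattop-positive replicate 3.

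This tilt to a single array ran through the list. Of the 84 members, 62 (73.8%) had their highest value on Flattop-negative replicate 2, against 31.3% of all genes and 33.4% of Olfr genes. The median difference between Flattop-negative replicates 2 and 1 was 0.41 over the members, 0.07 over all genes and -0.09 over Olfr genes. Vim, Sparc and Fn1 exceeded every other array there by at least 1 log2 unit, as did 1.34% of all genes. With that array 76 members were lower in Flattop-positive pools, beside 91.2% of Olfr genes and 59.2% of all genes. Without it 56 members were lower and 22 had turned to higher. The shares of Olfr genes and of all genes without that array were not counted, so this fall cannot be called particular to the members.

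Summed markers of several other cell types were highest on that array, while acinar, duct and mesothelial sums were highest on a Flattop-positive array. By median log2 signal, the acinar, duct and mesothelial lists were also highest on Flattop-negative replicate 2, at 5.25, 7.23 and 5.03. On the other arrays those medians were 4.10 to 4.52, 5.02 to 6.54 and 4.23 to 4.47. The part of these cell types in the results was not tested. Over 15 macrophage and myeloid markers the summed linear signal was 403 to 501 on the Flattop-positive arrays and 385 and 1282 on Flattop-negative arrays 1 and 2. Lyz2, the lysozyme of myeloid cells, was at 9.41 on Flattop-negative replicate 2, and the other 4 arrays held 3.36 to 4.58. This 1 gene made up much of the sum of 1282. The median log2 signal of the list was 4.37, 4.14 and 4.54 on the Flattop-positive arrays and 4.33 and 5.48 on the Flattop-negative arrays. Above the floor were 6 to 9 of the 15 on the Flattop-positive arrays and 7 and 12 on the Flattop-negative arrays, while Adgre1, Mrc1 and Ptprc were below it on all. The 3 with the top signals, C1qa, Cd68 and Cx3cr1, were above the floor on all 5 arrays, C1qa with 7.14, 6.98 and 6.02 in Flattop-positive pools against 4.95 and 5.84 in Flattop-negative pools.

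The 14 stellate and mesenchymal markers measured summed to 239 to 276 on the Flattop-positive arrays and to 300 and 433 on the Flattop-negative arrays. Thy1, Cygb and Notch3 were above the floor on all arrays and 8 markers on none, among them Pdgfra, Pdgfrb, Des and Lum. The 15 endothelial markers summed to 249 to 267 on the Flattop-positive arrays against 279 and 406 on the Flattop-negative arrays, with Egfl7 above the floor on all arrays, Robo4 and Vwf on 4, and 7 on none, among them Cdh5, Kdr and Plvap. The 5 platelet markers measured summed to 134 to 139 on the Flattop-positive arrays against 155 and 169 on the Flattop-negative arrays. The labelled cells were plain in the endocrine genes: of 10 β-cell markers, 10 lay above the floor on all 3 Flattop-positive arrays and 9 and 10 on the Flattop-negative arrays, with Ins2 between 12.37 and 13.08 and Gcg, of α-cells, between 12.81 and 13.39. Of the β-cell markers 7 were higher in Flattop-positive pools at an unadjusted limma p under 0.05, which 13.8% of all genes had in either direction. After adjustment 0 of them passed. G6pc2 had 11.93, 11.82 and 11.89 in Flattop-positive pools against 11.08 and 10.12 in Flattop-negative pools, and Iapp lay between 12.65 and 12.92 on all 5 arrays.

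Against the whole table, 12 members had an unadjusted limma p under 0.05, 14.3% of the members against 13.8% of all genes. Of these, 5 were at least 1.5-fold lower in Flattop-positive pools (Itga9, Col4a2, Lama2, Itgb2l and Dcn), a class that held 3.74% of all genes. The groups did not overlap for 35 members lower in Flattop-positive pools, against 21.0% of all genes, and for 3 members higher (Itgb1bp1, Itgb5 and Col6a6), against 13.7%. As shares, 41.7% of the members and 42.1% of the Olfr genes were lower without overlap. Of the 35, 14 lay above the floor on all arrays.

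The differences of 75 members lay within the central 95% of those of the Olfr genes (-0.78 to 0.12). Below that range were Vim, Sparc and Itga9, and above it Itgb1bp1, Itga3, Itga6, Col6a6, Itgb5 and Itgb1, while 2.69% of all genes lay below it and 33.1% above it. By signal, the 45 members with a mean of 4 to 5 had a median difference of -0.41 (-0.28 for all genes in that range) and the 22 with a mean of 5 to 6 one of -0.40 (-0.01 for all genes). The 9 members with a mean of 6 or more had 0.39, against 0.35 for all such genes. Without Flattop-negative replicate 2 the first 2 medians were -0.16 and -0.12, against -0.14 and 0.08 for all genes.

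**Figure D4:**
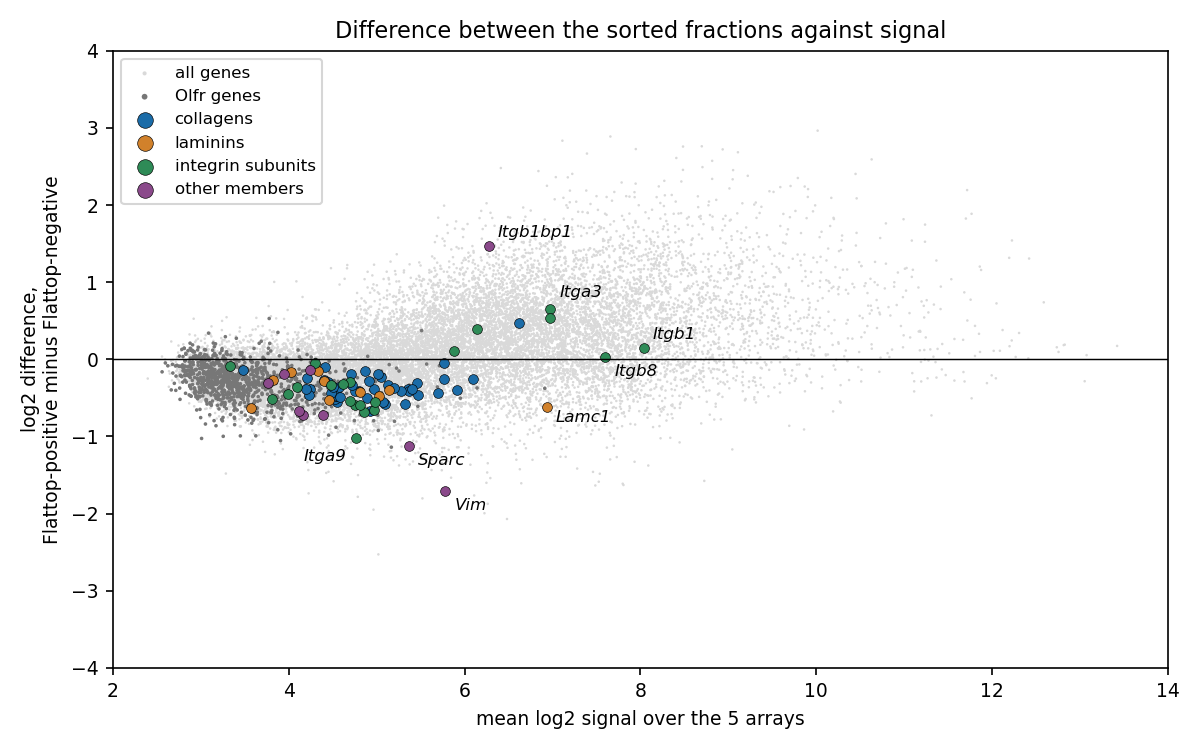
Log2 difference between Flattop-positive and Flattop-negative arrays (vertical axis) against the mean log2 signal over the 5 arrays (horizontal axis) for all genes (light grey), Olfr genes (dark grey) and the members by family. Most members lie below 0 in the range where the Olfr genes end, and the integrins with more signal lie near or above 0.

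Related genes of matrix assembly and adhesion, from lists drawn up by function, were read in the same fit, and 0 of them passed over all genes. Of 25 enzymes of collagen folding and cross-linking, 3 were higher and 1 lower at an unadjusted p under 0.05, which 13.8% of all genes had, with a median difference of 0.004. Ppib, a prolyl isomerase of the endoplasmic reticulum, had 9.03, 8.89 and 8.43 in Flattop-positive pools against 6.42 and 7.14 in Flattop-negative pools (1.998 ± 0.31, SE; limma adjusted p = 0.198). Its groups were far apart, and it also serves proteins other than collagen, as does P4hb, the protein disulfide isomerase subunit of prolyl 4-hydroxylase (0.69 ± 0.20, SE). Bmp1, the procollagen C-proteinase, had 0.78 ± 0.20 (SE). The gene lower was P3h2, a prolyl 3-hydroxylase, named after its value was seen (-0.67 ± 0.24, SE).

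Integrin adaptors and kinases were mostly well measured, 25 of 29 above the floor on all arrays. At an unadjusted p under 0.05, which 13.8% of all genes had, 4 were higher and 1 lower. Their median difference was -0.005, and 0.34 without Flattop-negative replicate 2. All genes with a mean signal of 6 or more had a median of 0.35, and of 0.31 without that array. Ilk, integrin-linked kinase, had 7.93, 7.88 and 7.44 in Flattop-positive pools against 6.71 and 6.90 in Flattop-negative pools (0.94 ± 0.24, SE; limma adjusted p = 0.249). Its partner α-parvin, Parva, had 9.06, 9.09 and 8.84 in Flattop-positive pools against 7.43 and 8.25 in Flattop-negative pools (1.16 ± 0.29, SE). Sharpin, which restrains β1 integrin activity and also takes part in linear ubiquitination, had 6.97, 7.003 and 6.97 in Flattop-positive pools against 5.87 and 5.79 in Flattop-negative pools (1.15 ± 0.18, SE; limma adjusted p = 0.198). These 3 did not overlap between the fractions, where 13.7% of all genes were higher without overlap. The other pair at that p, named after their values were seen, were the tensins Tns3, which was higher (1.08 ± 0.32, SE; limma adjusted p = 0.279), and Tns1, which was lower (-0.74 ± 0.22, SE; limma adjusted p = 0.281).

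Of 34 other matrix glycoproteins and proteoglycans, 3 were lower and 0 higher at an unadjusted p under 0.05, which 13.8% of all genes had. Their median was -0.38, and 15 lay above the floor on no array. The 3 were Vtn, Thbs4 and Mfap5, of which Vtn and Mfap5 lay below the floor on every array. Among 27 matrix proteases and inhibitors 1 had such a p, Mmp3, also below the floor throughout, with Adamts5 and Mmp19 next in order of p, and the median was -0.30. Of 20 other matrix receptors, 14 were above the floor on all arrays, with 1 higher and 1 lower at that p and a median of -0.04. Gpc4, a glypican, had 8.36, 8.30 and 8.22 in Flattop-positive pools against 7.67 and 7.45 in Flattop-negative pools (0.73 ± 0.19, SE; limma adjusted p = 0.253), and the collagen receptor Ddr2 4.33, 4.33 and 4.36 in Flattop-positive pools against 4.96 and 4.89 in Flattop-negative pools (-0.59 ± 0.18, SE). Dag1, dystroglycan, which binds laminin, had 6.83, 6.90 and 6.66 in Flattop-positive pools against 5.47 and 6.55 in Flattop-negative pools (0.79 ± 0.35, SE; limma adjusted p = 0.394).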

How the data were processed

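Gene expression was measured on 5 arrays, from total RNA amplified before labelling, per the labels' protocols. Per the submitters' processing notes, the authors summarised probe sets by RMA (Affymetrix Expression Console, version 1.3.0.187), and what they deposited is on a log2 scale. No genome build was named in the labels. Of 35556 probe sets, 21789 had a single symbol in GEO's annotation, and each gene kept its brightest probe set by mean. The fractions were tested with limma 3.58.1 in R 4.3.3, with group as the only term, moderated variances, two-sided p and Benjamini-Hochberg adjustment over 19938 genes. The model was tested on simulated data. A permutation test of 3 against 2 arrays, one-sided, cannot give a p below 0.1, and the number of arrays limits every value. The floor was the 95th percentile of Olfr genes on each array.

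Members, gene lists and tests were chosen with earlier results of these data known. Named with values were members above the floor on at least 3 arrays or on both Flattop-negative arrays (53), a set of common chains, members at least 1.5-fold apart with an unadjusted p under 0.05, up to 3 genes per pathway list by p and up to 3 per marker list by signal. Marker lists of other pancreatic cell types were read as well. Alternatives were other normalisations, dim genes left out, all probe sets averaged, another variance model, array weights, the replicate number as a block and each array left out. Plots were drawn in matplotlib 3.10.9 from tables handled in pandas 2.3.3.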

Additional observations from a re-analysis of the deposited data

How the results depend on the processing

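The count of members passing an adjusted p of 0.05 was 0 in 12 of 13 alternatives and 1 (Itgb3bp) without Flattop-negative replicate 2. At an unadjusted p and 1.5-fold there were 6 members, 3 with dim genes left out, 3 after cyclic loess, 3 with the replicate block, 2 with arrays centred, 2 on repeated quantile normalisation, and 3 to 33 with 1 array left out (33 without Flattop-negative replicate 1, 8 without replicate 2). Groups did not overlap for 38 members in the main fit, where 21.0% of all genes were lower and 13.7% higher without overlap. They did not for 25 with dim genes left out, 23 with arrays centred and 22 on repeated quantile normalisation. With 1 array left out the count was 38 to 76, but groups of fewer arrays separate more readily by design. Shares of all genes without overlap, or at that p and fold, were not counted under the alternatives. The median of -0.39 was -0.57 to -0.14 with 1 array left out and -0.25, -0.21 and -0.21 under the 3 normalisations. Above the floor on all arrays were 37 members, and 12 at the 99th percentile. Signs turned for Itgb1 (-0.15 on repeated quantile normalisation, -0.29 after cyclic loess, -0.044 with the replicate block), Itgb8 (-0.27 and -0.37 under those normalisations) and Col3a1 (0.022 on quantile normalisation, 0.025 with arrays centred, 0.046 after cyclic loess). With 1 array left out, differences ran from -0.089 to 0.38 for Itgb1, -1.13 to 1.204 for Itgb8, -0.26 to 1.57 for Itga3, -0.43 to 0.65 for Itga2, -3.49 to 0.08 for Vim, -1.48 to 0.14 for Fn1, -1.32 to 0.0037 for Itga2b, -1.94 to 0.49 for Itgb3bp, -1.25 to 0.29 for Lamb1, -0.39 to 0.085 for Col3a1 and -0.99 to 0.22 for Col4a1. In all, 362 of 384 differences of 30 members kept their direction and side of the threshold, and 21 turned in sign. Much of that agreement was fixed beforehand. Leaving out dim genes or changing the variance model leaves a difference as it was, and 0 members passed the threshold in the main fit. The replicate numbers are not stated to pair the pools, and the deviations of same-numbered pools correlated at 0.182 and -0.137. The cause of these changes was not tested. The higher floor of the Flattop-negative arrays limits what can be said of members near it.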

Other observations

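Markers of other pancreatic cell types were read on the same arrays, as summed linear signals, and their part in the members' values was not tested. The 10 acinar markers measured, led by Rnase1, Cela2a and Cpa1, summed to 228 to 710 on the Flattop-positive arrays and to 429 and 586 on Flattop-negative arrays 1 and 2. Rnase1, at 9.04 on Flattop-positive replicate 3, made up much of the sum of 710 there. The 7 duct markers, led by the keratins Krt8, Krt18 and Krt7, summed to 4447 to 7148 on the Flattop-positive arrays against 3455 and 6567 on the Flattop-negative arrays. Krt7 had 9.29, 9.88 and 9.05 in Flattop-positive pools against 6.76 and 8.37 in Flattop-negative pools (1.85 ± 0.53, SE; limma adjusted p = 0.275). The 5 mesothelial markers, led by Msln, Wt1 and Upk3b, summed to 310 to 451 on the Flattop-positive arrays against 143 and 208 on the Flattop-negative arrays. Msln, encoding mesothelin, had 7.94, 8.55 and 8.00 in Flattop-positive pools and 6.06 and 6.46 in Flattop-negative pools, without overlap (1.90 ± 0.28, SE; limma adjusted p = 0.198). The 6 α-cell markers, led by Gcg, Ttr and Slc7a2, summed to 12672 to 15120 on the Flattop-positive arrays against 9720 and 17756 on the Flattop-negative arrays. Ttr had 12.27, 12.34 and 12.41 in Flattop-positive pools against 9.69 and 12.67 in Flattop-negative pools, the low value being that of Flattop-negative replicate 1, the array on which Itga3 was also low. The 8 glial markers, led by Ngfr, Sox10 and Foxd3, summed to 143 to 171 on the Flattop-positive arrays against 181 and 204 on the Flattop-negative arrays, and the 8 lymphocyte markers, led by Cd3e, Cd79b and Cd79a, to 130 to 139 on the Flattop-positive arrays against 137 and 162 on the Flattop-negative arrays. Leading the platelet markers were Gp5, Treml1 and Gp9, of which Gp5 lay between 5.77 and 6.18 on all 5 arrays.

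Integrin chains named by a letter were not members by the rule, and those of leukocytes were read beside the members. Itgax, the αX chain of myeloid cells, had 3.85, 3.83 and 4.12 in Flattop-positive pools and 3.83 and 5.32 in Flattop-negative pools, above the floor on Flattop-negative replicate 2 alone. Itgam, the αM chain, was below the floor on all 5 arrays, with 3.64, 3.56 and 3.74 in Flattop-positive pools against 3.88 and 4.83 in Flattop-negative pools, although its highest value was on the same array. Itgad was at 4.97 in each of the Flattop-positive pools and at 4.88 and 5.68 in Flattop-negative pools. Itgal had 4.49, 4.53 and 4.39 in Flattop-positive pools and 4.59 and 4.64 in Flattop-negative pools. Itgae was at 3.44, 4.13 and 3.79 in Flattop-positive pools and at 4.11 and 4.17 in Flattop-negative pools. The β2 chain that pairs with αX, αM, αD and αL, Itgb2, had 3.59, 3.58 and 3.62 in Flattop-positive pools and 4.22 and 4.01 in Flattop-negative pools, lower on Flattop-negative replicate 2 than on replicate 1.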
